A study of Homo sapiens with 6 samples.

Results

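Phosphatidylethanolamine (PE) and phosphatidylserine (PS) are the aminophospholipids of cell membranes, and 8 genes that encode enzymes of their synthesis were followed here: PCYT2, ETNK1, ETNK2, SELENOI, CEPT1, PTDSS1, PTDSS2 and PISD. They were picked out by gene name as members of the pathway, with earlier results of these data known. The 8 genes are 8 of the 19746 genes that the tables list after merging, and all 8 were above the expression limit, with 12756 genes tested in all.

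RNA-Seq was performed in SW480, an established human colorectal cancer cell line, to compare cells with PCYT2 knockdown with vector control cells. The control cells are those labelled shNT (2 libraries), and the knockdown cells carried a hairpin against PCYT2, either shPcyt2-1 (2 libraries) or shPcyt2-2 (2 libraries). The knockdown virus was made with the pLKO.1 hairpin vector and infected cells were selected with puromycin, while the vector and selection of the shNT cells are not given in the sources used here. Nothing in the labels says whether the 2 libraries of a group came from separate cultures, so p-values measure the spread between these libraries, which may be technical.

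Each library is a table of genes with a value read as FPKM (fragment counts divided by gene length and library size), and the 6 tables list between 18806 and 19209 genes and sum to between 396467 and 402612 FPKM. The number of reads is unknown. The commonest low value of a library was shared by 26 to 38 rows, and 9 to 17 and 3 to 8 rows held 2 and 3 times that value. Whether the rows at this step have the same length in each library was not checked. The reciprocal of the step is therefore only a rough guide to relative depth. It was 6.89 and 6.23 with shNT, 5.26 and 6.70 with shPcyt2-1, and 6.87 and 5.89 with shPcyt2-2. The shPcyt2-1 replicate 1 library had the lowest reciprocal, and the other libraries overlapped between groups. The fewest genes were listed in another library, shPcyt2-2 replicate 2 (18806, against 18890 in shPcyt2-1 replicate 1).

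The labelled cell type was compared with its markers. All 8 markers of colorectal epithelium were listed, led by KRT8, and their summed level was 8212 and 8771 FPKM with shNT, 8433 and 8526 FPKM with shPcyt2-1, and 6259 and 6556 FPKM with shPcyt2-2. The 4 fibroblast markers summed to between 1.45 and 2.47 FPKM per library (COL1A1 was the most abundant), the 4 leukocyte markers to between 1.01 and 1.75 FPKM (CD14, with PTPRC not listed), and the 3 endothelial markers to between 0.513 and 0.769 FPKM (CDH5). The keratins KRT8, KRT18 and KRT19 were lower with shPcyt2-2 by 0.41, 0.45 and 0.44 on the log2 scale (limma adjusted p = 0.00483, 0.00319 and 0.00546). The other epithelial markers did not pass with shPcyt2-2. Their differences were 0.28 for CDX1, 0.19 for CDH1, 0.14 for VIL1, 0.11 for EPCAM and -0.055 for CDX2. The intestinal transcription factor CDX2 was lower with shPcyt2-1, at 10.01 and 9.88 FPKM against 15.5 and 16.9 FPKM with shNT. The part of these changes in the values below was not tested, and in these bulk libraries fewer cells of a kind and less RNA per cell cannot be told apart.

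Cells make PE by 2 main routes. In the CDP-ethanolamine branch, ethanolamine kinases phosphorylate ethanolamine, PCYT2 joins phosphoethanolamine to cytidine to form CDP-ethanolamine, and phosphotransferases of the endoplasmic reticulum and Golgi pass the head group to diacylglycerol. In the PS route, PS synthases exchange the head group of phosphatidylcholine or PE for serine, and PS that reaches the inner mitochondrial membrane is decarboxylated to PE. The step at PCYT2 is generally taken as rate limiting for the CDP-ethanolamine branch.

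To compare the enzymes with each other, levels were read in FPKM, which are set per gene length. In shNT cells the order of mean levels was PISD at 15.0 FPKM, PTDSS1 at 13.3 FPKM, ETNK1 at 13.1 FPKM, PCYT2 at 12.7 FPKM, SELENOI at 9.23 FPKM, CEPT1 at 9.18 FPKM, PTDSS2 at 8.22 FPKM and ETNK2 at 3.88 FPKM. The ranges of PTDSS1, ETNK1 and PCYT2 overlapped, as did those of SELENOI, CEPT1 and PTDSS2. With shPcyt2-1 the ranges of ETNK1 and PISD, which had the highest means (18.9 and 17.9 FPKM), overlapped, as did those of PTDSS2 (7.24 FPKM) and PCYT2 (7.23 FPKM), which lay above ETNK2. With shPcyt2-2 ETNK1 (19.1 FPKM) lay above PISD (15.7 FPKM), and PCYT2 (6.44 FPKM) lay below PTDSS2 (7.74 FPKM) and above ETNK2 (4.23 FPKM), with no overlap between these neighbors. PCYT2 lay above 65.9% of the tested genes by mean level in shNT cells, above 49.9% with shPcyt2-1 and above 46.5% with shPcyt2-2.

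**Figure D1:**
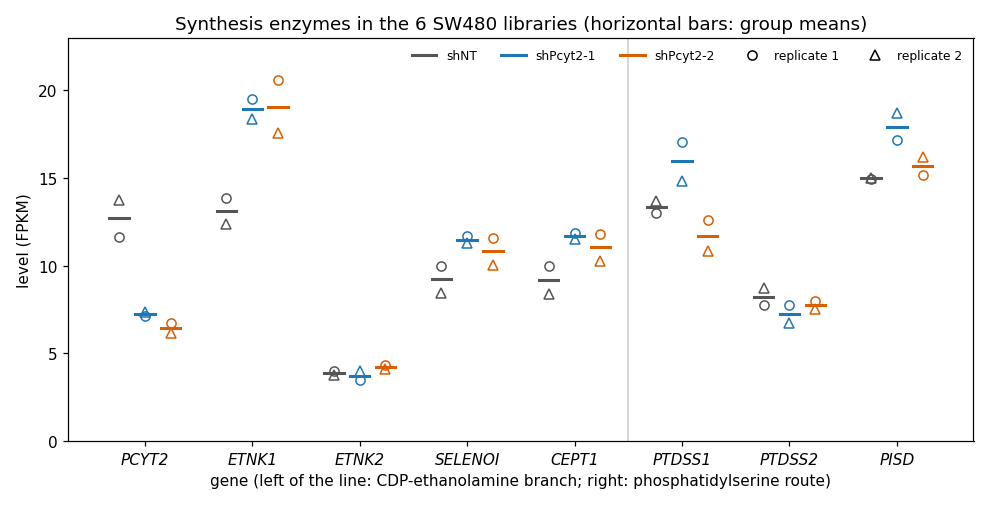
Level in FPKM (vertical axis) of the 8 enzymes in each of the 6 libraries, with circles for replicate 1, triangles for replicate 2 and horizontal bars for group means. The 4 knockdown libraries lie below both shNT libraries for PCYT2 and above both for ETNK1, SELENOI, CEPT1 and PISD, and PTDSS1 is higher with shPcyt2-1 than with shPcyt2-2.

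PCYT2 (ENSG00000185813), the CTP:phosphoethanolamine transferase that both hairpins target, was read first as a check of the labels. It lies on the minus strand at chr17:81900965-81911464 of GRCh38. It was at 11.6 and 13.8 FPKM in the shNT libraries, 7.11 and 7.36 FPKM with shPcyt2-1, and 6.71 and 6.18 FPKM with shPcyt2-2. The groups did not overlap, and the knockdown means were 57.0% and 50.8% of the shNT mean of 12.7 ± 1.51 FPKM (SD, n = 2). PCYT2 fell by 0.73 on the log2(FPKM + 1) scale with shPcyt2-1 (SE 0.10, limma adjusted p = 0.00205 over all tested genes) and by 0.88 with shPcyt2-2 (SE 0.10, limma adjusted p = 0.00261). From shPcyt2-1 to shPcyt2-2 it changed by -0.15 (95% interval -0.37 to 0.080, limma adjusted p = 0.309). PCYT2 shares 1941 bases of its span with the antisense gene NPB, listed at between 0.135 and 0.739 FPKM, and 27 bases with ANAPC11, which was at between 89.3 and 108 FPKM and rose with shPcyt2-1 by 0.24 (limma adjusted p = 0.0164). Their part in the PCYT2 values was not tested, and the sources used here do not state whether counting used strand.

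The calls of the members were read against those of all tested genes, and both comparisons share the shNT libraries. With shPcyt2-1, 4 of the 8 enzymes passed an adjusted p under 0.05, where 26.7% of all tested genes did. Of these, ETNK1, CEPT1 and PISD rose (3 of 8, against 16.5% of all tested genes) and PCYT2 fell (1 of 8, against 10.1%). With shPcyt2-2, ETNK1 rose and PCYT2 fell (2 of 8, against 12.4% of all tested genes in either direction, 7.69% higher and 4.74% lower). Both counts include PCYT2, the hairpin target, whose fall was foreseen by the design. ETNK1 and PCYT2 were the members that passed with each hairpin in the same direction, which 4.37% of tested genes did. The median difference over the 8 enzymes was 0.24 with shPcyt2-1 and 0.082 with shPcyt2-2, beside 0.067 and 0.044 over all tested genes. Of all tested genes, 2109 were higher and 1291 lower with shPcyt2-1 and 981 were higher and 604 lower with shPcyt2-2. With median-ratio scaling of the libraries these splits were 1476 and 1713, and 760 and 845. Without shNT replicate 2, without either shPcyt2-1 library or without either shPcyt2-2 library, 2 of the 8 enzymes passed with shPcyt2-1, and without shNT replicate 2 or shPcyt2-2 replicate 1, 1 passed with shPcyt2-2.

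**Figure D2:**
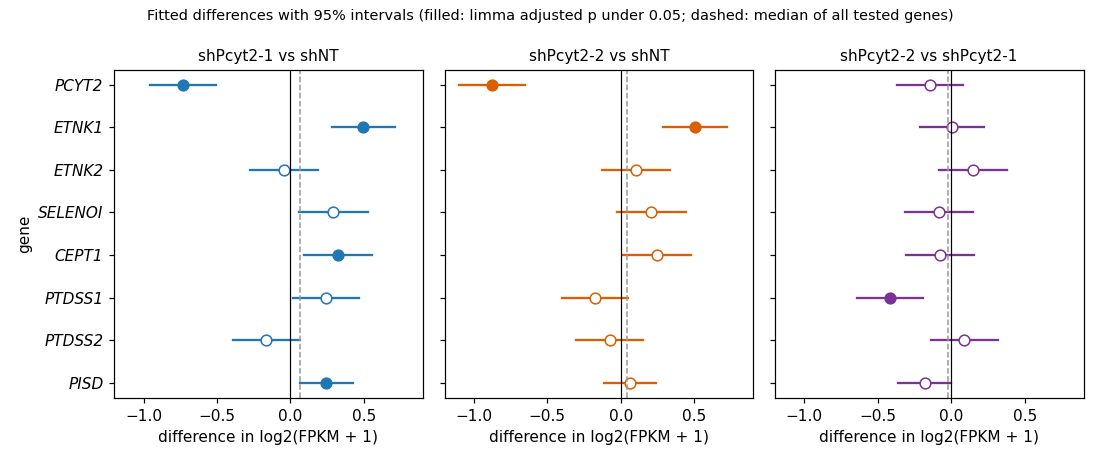
Fitted difference in log2(FPKM + 1) (horizontal axis) for each enzyme, with 95% intervals from limma, for each hairpin against shNT and for the difference between the hairpins. Filled points have an adjusted p under 0.05 and the dashed line is the median of all tested genes: PCYT2 (-0.73 and -0.88) and ETNK1 (0.50 and 0.50) are filled with both hairpins, and PTDSS1 (-0.42) is the filled point between the hairpins.

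The ethanolamine kinases catalyze the first step of the branch. ETNK1 (ENSG00000139163, plus strand, chr12:22625075-22690665) was at 13.9 and 12.4 FPKM with shNT, 19.5 and 18.3 FPKM with shPcyt2-1, and 20.6 and 17.6 FPKM with shPcyt2-2. All 4 knockdown libraries were higher than both shNT libraries, at 144% and 145% of the shNT mean. ETNK1 rose by 0.50 on the log2(FPKM + 1) scale with shPcyt2-1 (SE 0.096, limma adjusted p = 0.00739) and by 0.50 with shPcyt2-2 (SE 0.096, limma adjusted p = 0.0149). The hairpins differed by 0.0075 (95% interval -0.21 to 0.22). With shPcyt2-2 the call was lost without shNT replicate 2 (0.43, limma adjusted p = 0.0769) and without shPcyt2-2 replicate 1 (0.39, limma adjusted p = 0.110).

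ETNK2, the second ethanolamine kinase gene (ENSG00000143845, minus strand, chr1:204131062-204152003), had the lowest level of the 8 enzymes in each group. It was at 3.97 and 3.78 FPKM with shNT, 3.46 and 4.005 FPKM with shPcyt2-1, and 4.35 and 4.12 FPKM with shPcyt2-2. The shPcyt2-1 libraries lay on either side of the shNT libraries. The difference from shNT was -0.046 with shPcyt2-1 (95% interval -0.28 to 0.18) and 0.10 with shPcyt2-2 (95% interval -0.13 to 0.33), and neither passed the test. The within-library ratio of ETNK1 to ETNK2 was 3.39 ± 0.156 (SD, n = 2) with shNT, 5.11 ± 0.749 with shPcyt2-1 and 4.501 ± 0.337 with shPcyt2-2.

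SELENOI and CEPT1 encode the phosphotransferases that complete PE synthesis. SELENOI (ENSG00000138018, plus strand, chr2:26308547-26395891) is a selenoprotein that acts on CDP-ethanolamine, and CEPT1 (ENSG00000134255, plus strand, chr1:111139627-111185102) accepts CDP-ethanolamine and CDP-choline. SELENOI was at 10.002 and 8.46 FPKM with shNT, 11.7 and 11.3 FPKM with shPcyt2-1, and 11.6 and 10.05 FPKM with shPcyt2-2. CEPT1 was at 9.96 and 8.40 FPKM with shNT, 11.9 and 11.5 FPKM with shPcyt2-1, and 11.8 and 10.3 FPKM with shPcyt2-2. For both genes every knockdown library was above both shNT libraries, although shPcyt2-2 replicate 2 was close to shNT replicate 1. CEPT1 rose with shPcyt2-1 by 0.32 (SE 0.10, limma adjusted p = 0.0466), and SELENOI had a difference of 0.29 (95% interval 0.058 to 0.52, limma adjusted p = 0.0649). With shPcyt2-2 the differences were 0.25 for CEPT1 (95% interval 0.013 to 0.48, limma adjusted p = 0.142) and 0.21 for SELENOI (95% interval -0.025 to 0.44, limma adjusted p = 0.203). The CEPT1 call was lost without shNT replicate 2 (0.21), without shPcyt2-1 replicate 1 (0.30) or replicate 2 (0.34), and without either shPcyt2-2 library (0.32, limma adjusted p = 0.0506 and 0.0507). Without shNT replicate 1, SELENOI passed with shPcyt2-1 (0.40, limma adjusted p = 0.0359), and without shNT replicate 2 it was at 0.18 (limma adjusted p = 0.292). In the absence of shNT replicate 2 the shPcyt2-2 values were 0.14 for CEPT1 and 0.099 for SELENOI.

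The 2 phosphotransferases had nearly the same level in every library. The ratio of CEPT1 to SELENOI was 0.996 and 0.993 with shNT, 1.02 and 1.02 with shPcyt2-1, and 1.02 and 1.02 with shPcyt2-2, and the absolute gap was between -0.055 and 0.26 FPKM. By Pearson correlation of log2(FPKM + 1) over the 6 libraries, SELENOI ranked 2 among 12755 other genes by likeness to CEPT1 (r = 0.998, a description over 6 libraries that fall into 3 groups and share their scaling). This pair was singled out after its values were seen. Annotated transcripts of CEPT1 and SELENOI share 0 of their 8428 and 8581 words of 31 bases, as do those of ETNK1 and ETNK2 and those of PTDSS1 and PTDSS2. SELENOI overlaps ADGRF3 on the other strand over 38271 bases (ADGRF3 was at most 0.122 FPKM), and CEPT1 overlaps DRAM2 over 590 bases (DRAM2 was between 12.4 and 16.7 FPKM). DRAM2 was itself higher with shPcyt2-1 by 0.28 (limma adjusted p = 0.0396) and differed by 0.036 with shPcyt2-2, and its part in the CEPT1 values was not tested.

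Base composition moved with some of the members that were higher and not with PISD. The longest annotated transcript has a GC content of 34.6% for ETNK1, 34.9% for CEPT1 and 38.4% for SELENOI, beside a median of 49.5% over tested genes, and of 56.4% for PISD and 64.6% for PCYT2. Once each library was corrected for a smooth trend on GC content and length, an alternative added after seeing the data, the ETNK1 difference was 0.28 with shPcyt2-1 (adjusted p = 0.0113 in limma) and 0.25 against shNT in the shPcyt2-2 libraries (adjusted p = 0.0285). CEPT1 was then at 0.11 with shPcyt2-1 and -0.0045 with shPcyt2-2, SELENOI at 0.10 and 0.016, and none of these 4 passed. PISD was at 0.25 with shPcyt2-1 (adjusted p = 0.0335 in limma) and 0.094 with shPcyt2-2, and PCYT2 was at -0.56 and -0.78 and passed with both hairpins. The part of base composition in the differences was not tested further.

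**Figure D3:**
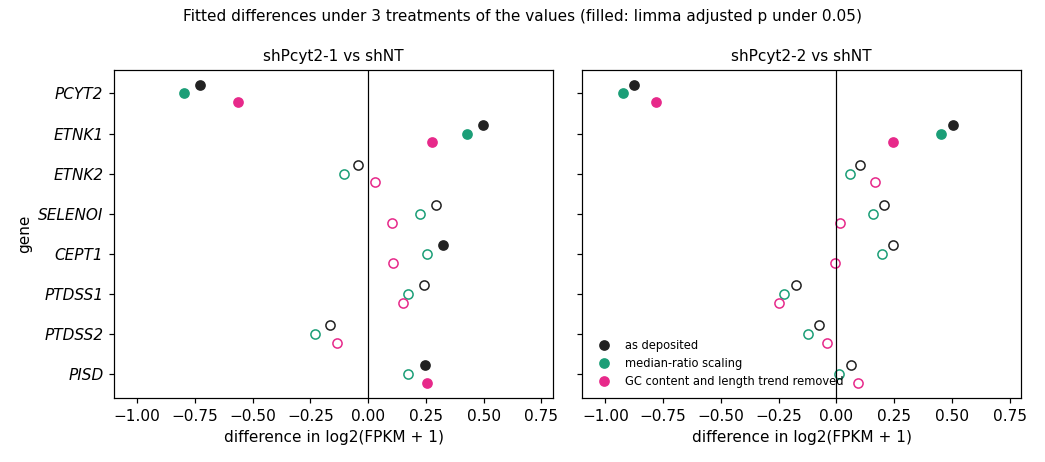
Fitted difference in log2(FPKM + 1) against shNT (horizontal axis) for the 8 enzymes with values as deposited, with median-ratio scaling, and with a trend on GC content and length removed, with filled points for a limma adjusted p under 0.05. PCYT2 and ETNK1 are filled in all 3 treatments with both hairpins, while CEPT1 with shPcyt2-1 is filled as deposited (0.32) and open in the other treatments (0.26 and 0.11).

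For the 3 members with the highest differences in the branch, the 250 bases upstream of a RefSeq start on GRCh38.p14 are shown so that their sequences can be compared, all on the plus strand. At these 3 starts 0 GENCODE transcripts begin on the same base. The SELENOI window lies inside the GENCODE span of that gene given above, and the ETNK1 and CEPT1 windows run into theirs. Which start these cells use is therefore not known from these data. Capitals mark matches on either strand to a CCAAT box (CCAAT), a GC box (GGGCGG), the core of an ETS site (CCGGAAG), a cAMP response element core (TGACGT) or an E-box (CACGTG). The windows are chr12:22624921-22625170 for ETNK1, chr2:26345893-26346142 for SELENOI and chr1:111139599-111139848 for CEPT1, which has another RefSeq start downstream (window chr1:111139973-111140222, with 0 matches to the 5 motifs) that is not shown.
ETNK1: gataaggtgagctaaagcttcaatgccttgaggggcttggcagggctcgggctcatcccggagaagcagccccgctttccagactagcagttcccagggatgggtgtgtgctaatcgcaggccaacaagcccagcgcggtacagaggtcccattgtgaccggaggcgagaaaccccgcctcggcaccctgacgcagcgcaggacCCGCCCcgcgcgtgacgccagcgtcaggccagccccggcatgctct
SELENOI: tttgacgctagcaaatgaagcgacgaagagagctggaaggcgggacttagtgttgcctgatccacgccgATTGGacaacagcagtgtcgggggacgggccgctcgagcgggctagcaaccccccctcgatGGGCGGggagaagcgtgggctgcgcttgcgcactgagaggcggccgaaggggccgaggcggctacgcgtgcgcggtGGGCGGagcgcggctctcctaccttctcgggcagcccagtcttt
CEPT1: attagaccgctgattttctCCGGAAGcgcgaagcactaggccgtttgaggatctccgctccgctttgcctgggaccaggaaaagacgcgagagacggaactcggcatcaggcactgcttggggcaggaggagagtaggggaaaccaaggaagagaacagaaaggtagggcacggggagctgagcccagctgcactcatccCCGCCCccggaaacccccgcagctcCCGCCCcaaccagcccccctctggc
The ETNK1 window holds 1 GC box, the SELENOI window 2 GC boxes and 1 CCAAT box, and the CEPT1 window 2 GC boxes and 1 ETS core. No marked match overlaps another. Of 35116 RefSeq promoter windows of the same length, 42.6% hold the GC box, 32.0% the CCAAT box and 8.52% the ETS core, and the other motifs, with no match in these windows, are held by 7.10% (TGACGT) and 6.34% (CACGTG). The GC content of the windows was 65.2%, 66.8% and 62.8%, beside a median of 58.0%. A match is a description of the letters and not a binding site.

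The PS route was examined next, beginning with the decarboxylase. PISD (ENSG00000241878, minus strand, chr22:31618491-31662432) makes PE from PS in mitochondria. It was at 15.0 and 15.0 FPKM with shNT, 17.2 and 18.7 FPKM with shPcyt2-1, and 15.1 and 16.2 FPKM with shPcyt2-2. The shPcyt2-1 libraries were clearly apart from shNT, whereas shPcyt2-2 replicate 1 exceeded the shNT libraries by a small margin. PISD rose with shPcyt2-1 by 0.24 (SE 0.079, limma adjusted p = 0.0495), and with shPcyt2-2 the difference was 0.062 (95% interval -0.12 to 0.24, limma adjusted p = 0.631). Between shPcyt2-2 and shPcyt2-1 it differed by -0.18 (95% interval -0.36 to -0.0022, limma adjusted p = 0.120). The call with shPcyt2-1 was held under 3 of 13 alternatives and was lost when any of the 6 libraries was left out (0.18 to 0.30, limma adjusted p = 0.0579 to 0.294). PISD shares 96 bases with SFI1.

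PTDSS1 was the member that separated the hairpins. This gene (ENSG00000156471, plus strand, chr8:96261715-96336995) encodes the synthase that uses phosphatidylcholine. It was at 13.0 and 13.7 FPKM with shNT, 17.1 and 14.9 FPKM with shPcyt2-1, and 12.6 and 10.8 FPKM with shPcyt2-2. Both shPcyt2-1 libraries were above shNT and both shPcyt2-2 libraries were below it. Against shNT the differences were 0.24 (95% interval 0.016 to 0.46, limma adjusted p = 0.102) and -0.18 (95% interval -0.40 to 0.049, limma adjusted p = 0.261), and neither passed. Between the hairpins PTDSS1 was lower with shPcyt2-2 by 0.42 on the log2 scale (difference -0.42, SE 0.099, limma adjusted p = 0.0148), the 1 call among the 8 enzymes in a comparison where 27.1% of tested genes passed. The call was lost without shPcyt2-1 replicate 1 (-0.32) and without shPcyt2-2 replicate 2 (-0.32).

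PTDSS2 (ENSG00000174915, plus strand, chr11:448268-491399), the synthase that uses PE, was at 7.73 and 8.72 FPKM with shNT, 7.76 and 6.72 FPKM with shPcyt2-1, and 7.97 and 7.52 FPKM with shPcyt2-2. Its groups overlapped, and the differences were -0.16 (95% interval -0.39 to 0.065) and -0.076 (95% interval -0.30 to 0.15), neither past the test. The ratio of PTDSS1 to PTDSS2 within a library was 1.62 ± 0.0780 (SD, n = 2) with shNT, 2.21 ± 0.00757 with shPcyt2-1 and 1.51 ± 0.101 with shPcyt2-2.

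When the 4 knockdown libraries were pooled against shNT in a fit with 2 groups, 0 of the 8 enzymes passed with limma, where 0.00784% of tested genes (1 gene) did, and 4 of 8 had an unadjusted p under 0.05. PCYT2 was at -0.80 (95% interval -1.06 to -0.55, limma adjusted p = 0.115) and ETNK1 at 0.50 (95% interval 0.27 to 0.73, limma adjusted p = 0.135). This fit counts differences between the hairpins as spread. The mean of both hairpins from the fit with 3 groups, an alternative added after seeing the data, had limma adjusted p = 0.00334 for PCYT2 and 0.00840 for ETNK1. Without any test, all 4 knockdown libraries lay on one side of both shNT libraries for 5 of 8 enzymes, against 30.2% of tested genes. PCYT2, the hairpin target, lay below, and ETNK1, SELENOI, CEPT1 and PISD lay above.

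Ratios within a library do not depend on its scaling. The ratio of ETNK1 to PCYT2 was 1.19 and 0.901 with shNT, 2.74 and 2.49 with shPcyt2-1, and 3.07 and 2.84 with shPcyt2-2, so the kinase transcript went from about level with PCYT2 to well above it. The ratio of PISD to PCYT2 went from 1.29 and 1.09 with shNT to 2.41 and 2.54 with shPcyt2-1 and 2.26 and 2.63 with shPcyt2-2. PCYT1A encodes the enzyme of the matching step in phosphatidylcholine synthesis, and the ratio of PCYT2 to PCYT1A was 1.83 and 2.22 with shNT, 1.14 and 1.18 with shPcyt2-1, and 0.778 and 0.738 with shPcyt2-2. With shPcyt2-2 the order of PCYT2 and PCYT1A was thus the other way round. These ratios hold the hairpin target itself, so their direction follows in part from the knockdown. The longest annotated transcripts differ in GC content (34.6% for ETNK1, 64.6% for PCYT2, 56.4% for PISD and 46.9% for PCYT1A). Unlike scaling, a trend on GC content that differs between libraries does not cancel in a ratio, and its part was not tested.

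To place the enzymes in their pathway, 36 neighboring genes in 5 lists were followed, of which 35 were listed and 30 tested. PEDS1, searched also under its older name TMEM189, was not matched to a row and is not analysed here. With shPcyt2-1, 15 of 30 passed the test (9 higher and 6 lower, against 26.7% of all tested genes), with a median difference of 0.15. With shPcyt2-2, 4 of 30 passed (3 higher and 1 lower, against 12.4%), with a median of 0.11. The first count rests on single libraries: it was 1 once shPcyt2-1 replicate 1 was left out, 7 in the absence of shPcyt2-1 replicate 2, and 3 without shNT replicate 2, and 19 without either shPcyt2-2 library. The second was 0 once shPcyt2-2 replicate 1 was left out, 2 in the absence of shPcyt2-2 replicate 2, and 1 without shNT replicate 2.

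Of 7 tested genes that supply ethanolamine or phosphoethanolamine, 3 passed with shPcyt2-1 (2 higher and 1 lower, against 26.7% of all tested genes) and 0 with shPcyt2-2 by limma (against 12.4%, with 0 at an unadjusted p under 0.05), with median differences of 0.16 and 0.094. SGPL1, the lyase that releases phosphoethanolamine from sphingosine 1-phosphate, was at 10.2 and 10.7 FPKM with shNT, 16.6 and 16.5 FPKM with shPcyt2-1, and 12.7 and 10.6 FPKM with shPcyt2-2. It rose with shPcyt2-1 by 0.61 (SE 0.095, limma adjusted p = 0.00320), and this call was held under 13 of 13 alternatives. With shPcyt2-1 the phosphodiesterase GDE1 rose by 0.33, and PHOSPHO1, a phosphatase of phosphoethanolamine and phosphocholine, fell by 0.35 (limma adjusted p = 0.0159 and 0.0383). ETNPPL and FLVCR2 were under the expression limit.

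Of 6 tested genes of PS transfer and turnover, 5 passed with shPcyt2-1 (4 higher and 1 lower, against 26.7% of all tested genes) and 1 with shPcyt2-2 (higher, against 12.4%), with median differences of 0.30 and 0.25. TRIAP1, the partner of the PRELI proteins that carry phospholipids between the mitochondrial membranes, was at 22.1 and 19.6 FPKM with shNT, 28.3 and 27.0 FPKM with shPcyt2-1, and 26.9 and 27.4 FPKM with shPcyt2-2. It rose by 0.39 and 0.37 (limma adjusted p = 0.00813 and 0.0203). The carriers PRELID3A and PRELID3B rose by 0.30 each with shPcyt2-1. With shPcyt2-2 their differences were -0.18 and 0.24, and neither passed. Of the proteins that exchange PS at membrane contacts, OSBPL8 rose by 0.47 and OSBPL5 fell by 0.43 with shPcyt2-1, so the family did not move one way. The longest annotated transcript has a GC content of 35.5% for OSBPL8 and 63.6% for OSBPL5. The part of base composition in these 2 differences was not tested further.

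Of 10 tested genes that use or remodel PE, 6 passed with shPcyt2-1 (2 higher and 4 lower, against 16.5% and 10.1% of all tested genes) and 2 with shPcyt2-2 (1 higher and 1 lower, against 7.69% and 4.74%), with median differences of 0.058 and 0.10. PEMT, the methyltransferase that converts PE to phosphatidylcholine, was at 32.6 and 34.0 FPKM with shNT, 28.8 and 26.4 FPKM with shPcyt2-1, and 21.9 and 22.6 FPKM with shPcyt2-2. Every knockdown library was below shNT. PEMT fell by 0.26 with shPcyt2-1 (limma adjusted p = 0.0290) and fell by 0.56 with shPcyt2-2 (limma adjusted p = 0.00426), and its value with shPcyt2-2 minus that with shPcyt2-1 was -0.30 (limma adjusted p = 0.0160). The acyltransferase LPCAT3 rose with both hairpins, by 0.40 and 0.32 (limma adjusted p = 0.0114 and 0.0454), calls that were held under 12 and 6 of 13 alternatives. The acyltransferases LPCAT4 and MBOAT2 and the phospholipase PLAAT3 fell with shPcyt2-1 by 0.34, 0.31 and 0.32, and PIGO, which adds phosphoethanolamine to glycosylphosphatidylinositol anchors, rose by 0.42.

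Of 3 tested genes of ether phospholipid synthesis, GNPAT, the peroxisomal acyltransferase that opens the pathway, rose with shPcyt2-1 by 0.28 (limma adjusted p = 0.0425), a list with 1 of 3 called (against 26.7% of all tested genes), and 0 passed with shPcyt2-2 by limma (against 12.4%). Of 4 tested genes of the CDP-choline branch, 0 passed with shPcyt2-1 by limma (against 26.7%) and PCYT1A rose with shPcyt2-2 (1 of 4, against 12.4%). Where 0 passed in these lists, 0 also had an unadjusted p under 0.05. The median differences with shPcyt2-1 and shPcyt2-2 were 0.32 and 0.17 for the ether list and -0.012 and 0.082 for the CDP-choline branch. PCYT1A was at 6.37 and 6.20 FPKM with shNT, 6.25 and 6.22 FPKM with shPcyt2-1, and 8.63 and 8.37 FPKM with shPcyt2-2, a difference of 0.38 from shNT (limma adjusted p = 0.0237) and 0.39 from shPcyt2-1 (limma adjusted p = 0.00980). Of the calls with shPcyt2-1, those of PHOSPHO1 (-0.20), PRELID3B (0.083), PEMT (-0.11) and GNPAT (0.12) were lost once GC content and length were corrected for, and without shPcyt2-1 replicate 1 SGPL1 alone of these genes kept its call. With shPcyt2-2 the calls of TRIAP1 (0.38), PEMT (-0.54), LPCAT3 (0.20) and PCYT1A (0.36) were lost without shPcyt2-2 replicate 1.

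The genes whose pattern over the 6 libraries was most like that of PCYT2, among 7615 genes with a mean of at least 5 FPKM, were HR (r = 0.994), GTF2F1 (0.990), ZNF740 (0.987), ETV4 (0.986) and AIFM3 (0.985). HR was at 22.4 and 26.3 FPKM with shNT, 16.5 and 16.8 FPKM with shPcyt2-1, and 14.9 and 14.2 FPKM with shPcyt2-2. For PTDSS1, the member with the largest difference between the hairpins among the 8, they were GLE1 (0.9996), SPECC1L (0.995), FAM57A (0.993), RUNX1 (0.993) and MSTO1 (0.989). GLE1 was at 11.9 and 12.2 FPKM with shNT, 13.7 and 12.7 FPKM with shPcyt2-1, and 11.7 and 10.8 FPKM with shPcyt2-2. The values are Pearson correlations of log2(FPKM + 1), and the points share their libraries and scaling.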

How the data were processed

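The authors deposited 1 table of FPKM per library, a unit read from the values themselves. TPM over part of the genes cannot be told apart from it. Genes at 0 are not listed, and absent genes were set to 0. The submitters' processing notes name the builds GRCh38, GRCm38 and mm10 with no role. The aligner, counter and annotation are not given in the sources used here, and the labels name a pair of library kits without saying which was used where.

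Of 21539 identifiers, 115 that were repeated were summed, and 999 groups with identical values (above 0 in at least 3 libraries) were merged, PTDSS2 with 1 other identifier, which left 19746 genes. Names, positions, transcripts and GC content came from GENCODE release 29 (GRCh38), which named 12742 of the tested genes. The 12756 genes with a mean of at least 0.5 FPKM entered limma (version 3.58.1, R version 4.3.3) as log2(FPKM + 1), a scale that understates changes of low genes, with a trend of variance on mean level and p-values adjusted by Benjamini and Hochberg's method over all of them. All 6 libraries entered 1 fit with 3 groups, and the pooled comparison used 2 groups. The study's methods name a count-based package, which these values cannot enter. The fit was tested on simulated data.

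Members and lists were chosen with earlier results of these data known. Named are the 8 members, the listed neighbors with an adjusted p under 0.05 with either hairpin, and the 5 genes most like PCYT2 and PTDSS1. Also named are OSBPL10 (from the comparison of the hairpins), ETNPPL, FLVCR2 and PEDS1 (not tested), markers of cell types and overlapping genes. Promoters came from RefSeq (GRCh38.p14), with windows of 7 members searched. PTDSS1, the member on chromosome 8, was left out of this search. Alternatives covered the pseudocount, the expression limit, scaling, the replicate block, the variance trend, repeated rows, each library left out, GC content and length, and the grouping of the hairpins. Figures were drawn with matplotlib 3.10.9.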

Additional observations from a re-analysis of the deposited data

Results flagged for a closer look

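These differences between the hairpins, shPcyt2-2 minus shPcyt2-1, passed limma at an adjusted p under 0.05 among the 38 members and neighboring genes compared. They cover 1 of the 8 enzymes and 9 of the 30 tested neighboring genes, where 27.1% of all tested genes passed. The differences are given with no explanation. Among the enzymes it was PTDSS1 (-0.42), with levels of 17.1 and 14.9 FPKM with shPcyt2-1 and 12.6 and 10.8 FPKM with shPcyt2-2. Lower with shPcyt2-2 were also SGPL1 (-0.47), PRELID3A (-0.48) and PEMT (-0.30). Higher with shPcyt2-2 were PHOSPHO1 (0.37), OSBPL5 (0.46), OSBPL10 (0.31), a further gene of PS exchange that did not pass against shNT with either hairpin, LPCAT4 (0.46), MBOAT2 (0.30) and PCYT1A (0.39). Of these, SGPL1 and LPCAT4 passed under 13 of 13 alternatives, PRELID3A under 12, PCYT1A under 11, PTDSS1 and PEMT under 10, PHOSPHO1 and OSBPL5 under 9, and OSBPL10 and MBOAT2 under 8. In 8 groups of 4 knockdown libraries, 1 for each enzyme, no library stood apart from the others by Dixon's criterion, which marks about 1 group in 20 by chance. Each group holds 2 libraries of each hairpin. A difference between the hairpins widens the range, so the criterion can miss a library that stands apart.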

How the results depend on the processing

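The fall of PCYT2 kept its direction and its call with each hairpin under 13 of 13 alternatives (-0.84 to -0.56 and -0.99 to -0.76), and ETNK1 kept its call under 13 with shPcyt2-1 (0.28 to 0.57) and under 10 with shPcyt2-2 (0.25 to 0.61, lost also with no filter on low values, limma adjusted p = 0.0808). The pooled PCYT2 value passed in the mean of both hairpins from the fit with 3 groups (-0.80), where 2 of the enzymes passed in place of 0. The correction for GC content and length and this mean were chosen after seeing the data. The number of enzymes called with shPcyt2-1 (4) was 2 with no filter on low values, with median-ratio scaling and with no variance trend, and 2 to 4 with a library left out. With shPcyt2-2 (2) it was 1 with no filter and 1 to 2 with a library left out. Between the hairpins (1) it was 0 with no filter, 2 with GC content and length corrected for (PCYT2 at -0.22 in addition), and 0 to 1 with a library left out. The number of neighboring genes called with shPcyt2-1 (15) was 5 with no filter and 1 to 19 with a library left out, and with shPcyt2-2 (4) it was 1 with no filter and 0 to 5 with a library left out. With no filter, the number of genes tested was larger.

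Some values that had not passed changed sign, with no call in either direction. With GC content and length corrected for, these were ETNK1 between the hairpins (-0.030), ETNK2 with shPcyt2-1 (0.029), CEPT1 with shPcyt2-2 (from 0.25 to -0.0045) and pooled PTDSS1 (-0.049). With median-ratio scaling they were pooled ETNK2 (-0.022) and pooled PTDSS1 (-0.027). With a library left out, the range was -0.10 to 0.12 for ETNK1 (values of -0.034 and -0.10 among them), -0.18 to 0.010 for SELENOI and -0.17 to 0.015 for CEPT1 between the hairpins, -0.13 to 0.038 for ETNK2 with shPcyt2-1 and -0.0072 to 0.080 for pooled ETNK2. It was -0.069 to 0.14 for pooled PTDSS1 (-0.0030 and -0.0056 among them), and for PTDSS2 -0.15 to 0.0019 with shPcyt2-2 and -0.0032 to 0.18 between the hairpins. The cause was not tested.

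The libraries share only replicate numbers. The correlations of replicate differences between groups were 0.0027, 0.062 and 0.19, so the numbers were not taken as pairs. With the number as a replicate block, 5 enzymes passed with shPcyt2-1 (SELENOI in addition, 0.29, limma adjusted p = 0.0311) and 2 with shPcyt2-2, and 19 and 7 neighboring genes passed. The depth in reads is unknown, and each group has 2 libraries, which limits the precision.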
